A study of Mus musculus with 6 samples.

Results

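The genes described here handle iron and haem in cells. They are 10 genes named from knowledge of the pathway: Hmox1, Hmox2, Tfrc, Slc40a1, Slc11a2, Fth1, Alas1, Alas2, Fech and Aco1. Of these, 9 had an array probe annotated to a single gene, out of 22180 genes measured in that way in all. The only probe of Alas2, the first enzyme of haem synthesis in red cell precursors, also carried the name of another gene, so Alas2 was not analysed here. Each of the 9 genes had 1 such probe.

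YFP-positive cells were compared with YFP-negative cells, with 3 samples of each on 6 arrays. Both came from the bone marrow of C57Bl6 mice with an inducible Tg(Cdh5-Cre/ERT2) transgene and a Rosa 26 YFP reporter, at postnatal day 27. Tamoxifen had been given on days 1, 2 and 3 after birth, so both populations had the same genotype and the same treatment, 26 days after the first dose. The Cre was driven by the promoter of Cdh5, the VE-cadherin gene of endothelium, and YFP marks cells in which it was active and their descendants. The sort gate was LSK, the lineage-negative, Sca-1 and Kit positive fraction in which blood stem cells and multipotent progenitors are found. Whether the replicates were separate animals is not stated in the labels, so each p-value here reflects only sample-to-sample spread, which may be technical.

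Cells take up iron mostly as transferrin through the transferrin receptor, keep the surplus in ferritin and release it through ferroportin. Iron is used in mitochondria for iron-sulphur clusters and for haem, whose synthesis starts with the Alas enzymes and ends with ferrochelatase. Haem oxygenases open the haem ring and return its iron. Iron regulatory proteins tune several of these messenger RNAs to the iron at hand. In bone marrow the pathway is best known from red cell precursors, which make haem in bulk, and from macrophages, which recycle it.

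Values are the deposited log2 expression values, and a difference is that of the group means, YFP-positive minus YFP-negative, in log2 units, given with the moderated standard error (SE) of limma. Adjusted p-values are from limma with Benjamini-Hochberg adjustment over all 22180 genes, and 0.05 is the threshold. The arrays' medians over all probes lay between 3.62 and 3.68, and a level near or below these cannot be told from background. The populations differed widely in endothelial genes: 14 of 15 listed endothelial markers rose in YFP-positive cells, including Cdh5, with 11.6 ± 0.28 on YFP-positive arrays, against 4.55 ± 0.85 on YFP-negative ones (SD, n = 3 each, difference 7.03 ± 0.43, adjusted p = 0.00086). Lyve1 did not pass (adjusted p = 0.975).

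None of the 9 measured genes passed limma's test, where 1074 of all genes, 4.84%, did. At an unadjusted p under 0.05 there were 2 of the 9, Hmox1 and Hmox2, against 17.2% of all genes, and an unmoderated linear model called 0 of the 9. Hmox1 lay nearest to the threshold and measured higher in YFP-positive cells. For 6 of the 9 (Slc11a2, Slc40a1, Fth1, Alas1, Fech and Aco1), the whole 95% interval fell between -1 and 1, as it did for 72.7% of all genes. The median difference was 0.10 over the 9 genes and -0.01 over all genes. In bulk samples of this kind, fewer cells of a type and less RNA per cell cannot be told apart.

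**Figure D1:**
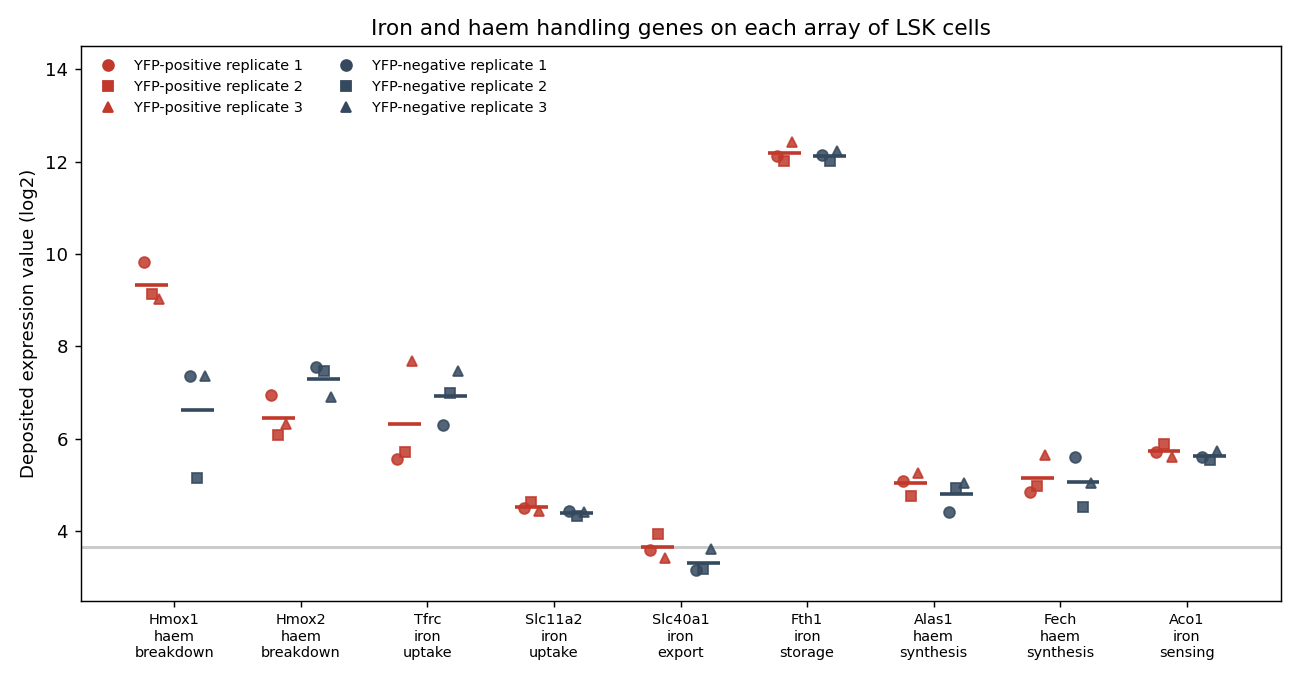
Deposited log2 expression values of the 9 measured genes on the 6 arrays, YFP-positive (red) left of YFP-negative (dark), with a symbol per replicate, a bar for each group's mean and a grey band at the array medians of 3.62 to 3.68. The groups do not overlap for Hmox1, overlap for the other genes, and lie near the grey band for Slc40a1.

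The haem oxygenase genes differed in opposite directions, neither past the threshold. Hmox1, the inducible haem oxygenase, had values of 9.83, 9.14 and 9.03 on YFP-positive arrays 1, 2 and 3, against 7.36, 5.16 and 7.36 on the YFP-negative ones. Every YFP-positive array was above every YFP-negative array, and YFP-negative replicate 2 was far below the other two of its group. It was the member without overlap between groups, an arrangement with YFP-positive higher that 10.8% of all genes showed. The difference was 2.71 ± 0.63 (SE), with a 95% interval of 1.17 to 4.25, or 6.53-fold, and it missed the threshold (adjusted p = 0.077). A difference at least as large was found for 219 genes, 0.987% of all. The unadjusted p was 0.00498, where the largest one to pass was 0.00241.

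The call on Hmox1 depended on the setting: it passed in 3 of 14 alternatives and missed the threshold in the other 11. Without YFP-negative replicate 2 the difference was smaller, at 1.97, but passed (adjusted p = 0.0431); the other two arrays of that group lay close together. Hmox1 also passed with a mean-variance trend and robust eBayes (adjusted p = 0.0498). It passed among genes above the median level alone (adjusted p = 0.0407), where the adjustment was over 11090 genes. Over all 14 alternatives its adjusted p ran from 0.0407 to 0.262, and its difference from 1.97 to 3.07.

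Hmox2, the constitutive haem oxygenase, had levels of 6.96, 6.09 and 6.33 in YFP-positive arrays, against 7.54, 7.46 and 6.91 in YFP-negative arrays. The groups overlapped by a narrow margin, YFP-positive replicate 1 being just above YFP-negative replicate 3. The difference was -0.85 ± 0.28, with an interval of -1.53 to -0.17, opposite in sign to that of Hmox1, and it did not pass (adjusted p = 0.186).

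The biliverdin reductases Blvra and Blvrb, which turn the product of haem oxygenase into bilirubin, differed by 0.18 ± 0.25 and 0.30 ± 0.21 (adjusted p = 0.814 and 0.587). Bach1, the haem-sensing repressor of Hmox1, measured 5.34, 6.33 and 6.36 in YFP-positive arrays, against 6.17, 6.11 and 5.51 in YFP-negative arrays. These values overlapped fully (difference 0.08 ± 0.33, adjusted p = 0.948). Nfe2l2, which encodes Nrf2, an activator of Hmox1 under oxidative stress, had 8.60, 8.77 and 8.80 in YFP-positive arrays, against 7.70, 7.93 and 8.32 in YFP-negative arrays. Its groups did not overlap, and it missed the threshold (0.74 ± 0.18, adjusted p = 0.0835), though it passed without YFP-negative replicate 3 (adjusted p = 0.0478).

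**Figure D2:**
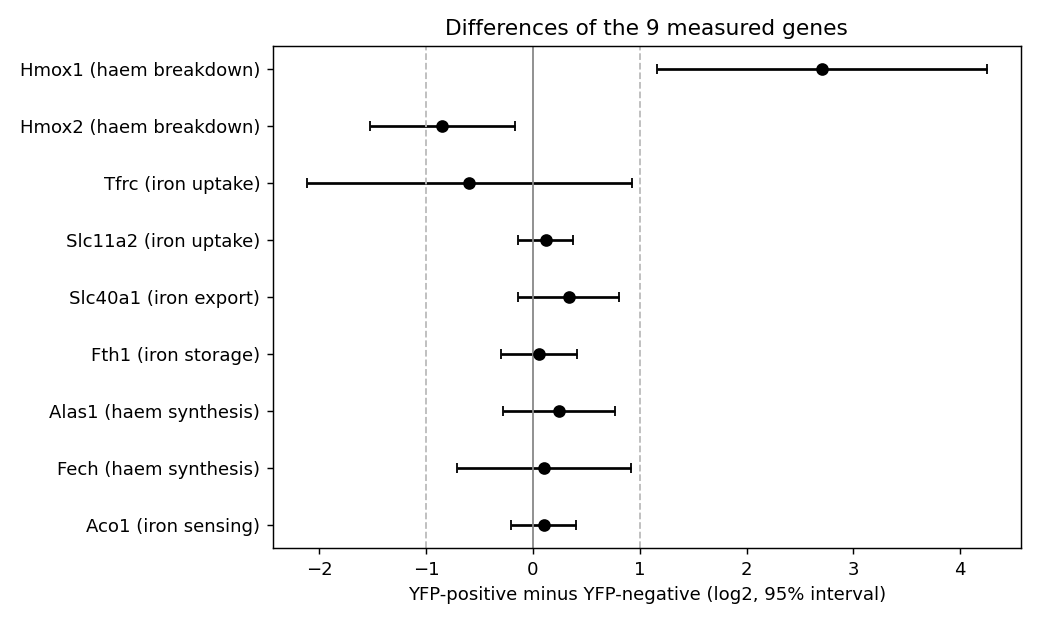
Difference (log2) of each of the 9 genes, YFP-positive minus YFP-negative, with limma's 95% interval; dashed lines mark -1 and 1. Hmox1 (2.71) lies right of 1 with its whole interval and Hmox2 (-0.85) left of 0, while 6 genes keep their interval between -1 and 1.

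Iron uptake genes showed no difference past the threshold among the members. Tfrc, the transferrin receptor, had values of 5.57, 5.71 and 7.69 on YFP-positive arrays 1, 2 and 3, against 6.30, 7.00 and 7.46 on the YFP-negative ones. YFP-positive replicate 3 had the highest value of the 6 arrays and the other two YFP-positive arrays the lowest. The difference was -0.60 ± 0.62, with an interval of -2.12 to 0.92 (adjusted p = 0.728). Without YFP-positive replicate 3 it was -1.28 and still did not pass (adjusted p = 0.134).

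That array also stood apart in leukocyte genes. The mean level of 13 listed leukocyte markers was 6.04, 6.19 and 7.98 on YFP-positive arrays 1, 2 and 3, against 7.95, 7.96 and 8.10 in the YFP-negative arrays. Ptprc, which encodes CD45, was likewise far higher on YFP-positive replicate 3 than on the other two of its group, with 6.52, 6.95 and 9.52 in YFP-positive arrays, against 9.33, 9.23 and 9.37 in YFP-negative arrays (adjusted p = 0.353, and 0.00256 without YFP-positive replicate 3). The part of these genes' spread in the values of Tfrc was not tested.

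Slc11a2, the divalent metal transporter that moves iron out of endosomes, was almost level over the arrays, with 4.50, 4.63 and 4.43 on YFP-positive arrays, against 4.44, 4.34 and 4.43 on YFP-negative ones. The interval of its difference, -0.14 to 0.38, was the narrowest of the 9 (0.12 ± 0.11, adjusted p = 0.669).

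The members for storage and export, Fth1 and Slc40a1, did not differ past the threshold. Fth1, the heavy chain of ferritin that oxidises iron for storage, gave 12.12, 12.01 and 12.42 in YFP-positive arrays, against 12.14, 12.00 and 12.24 in YFP-negative arrays. The groups overlapped, with a difference of 0.06 ± 0.15 and an interval of -0.30 to 0.41 (adjusted p = 0.907). Slc40a1, ferroportin, the known exporter of iron from cells, measured 3.59, 3.95 and 3.43 in YFP-positive arrays, against 3.17, 3.18 and 3.62 in YFP-negative arrays. Such levels lie around the array medians, and the difference of 0.34 ± 0.19 did not pass (adjusted p = 0.478).

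Haem synthesis was represented by its first and last enzymes. Alas1, the housekeeping first enzyme, had 5.10, 4.77 and 5.27 in YFP-positive arrays, against 4.42, 4.93 and 5.05 in YFP-negative arrays, a difference of 0.24 ± 0.22 (adjusted p = 0.672). Fech, ferrochelatase, which inserts iron into the ring, had 4.85, 4.99 and 5.64 in YFP-positive arrays, against 5.60, 4.52 and 5.05 in YFP-negative arrays (0.10 ± 0.33, adjusted p = 0.931). For both genes the arrays of the populations were interleaved.

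Aco1, the cytosolic aconitase that serves as iron regulatory protein when it lacks its iron-sulphur cluster, had values of 5.72, 5.90 and 5.60 on YFP-positive arrays, against 5.62, 5.55 and 5.74 on YFP-negative ones. The difference was 0.10 ± 0.12 with an interval of -0.20 to 0.40 (adjusted p = 0.774). Ireb2, the other iron regulatory protein, differed by 0.11 ± 0.23 (adjusted p = 0.884).

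The pathway beyond these genes was covered by 7 lists with 98 genes, of which 87 were measured, the 9 members included. Of the 87, 3 rose (3.45%) and 0 fell, against 2.88% higher and 1.96% lower of all genes. At an unadjusted p under 0.05 there were 16 of the 87, against 17.2% of all genes. The unmoderated model called 0 of the 87. The 3 that rose were Abcg2, Slc39a8 and Hfe. Their groups did not overlap.

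Abcg2, an efflux pump known to carry porphyrins and haem and to mark side population stem cells, measured 8.35, 8.86 and 7.86 in YFP-positive arrays, against 5.36, 5.85 and 5.40 in YFP-negative arrays. It rose 7.04-fold (2.82 ± 0.28, adjusted p = 0.00513) and passed whichever of the 6 arrays was omitted (highest adjusted p = 0.031). It was not called by the unmoderated model (adjusted p = 0.0726). Among other genes of haem breakdown and transport, Slc48a1 and Flvcr1, an importer of haem from lysosomes and an exporter of haem, differed by -0.20 ± 0.14 and -0.12 ± 0.24 (adjusted p = 0.593 and 0.876). Flvcr1 averaged 3.41 on YFP-positive arrays, against 3.53 on YFP-negative ones, both below the array medians, so a difference in it could be missed. Of the 15 measured genes on that list, 1 rose and 0 fell, with a median of -0.00.

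Slc39a8, a metal importer of the ZIP family that can carry iron, had 8.35, 6.74 and 7.64 in YFP-positive arrays, against 4.98, 4.85 and 5.14 in YFP-negative arrays. It rose 6.0-fold (2.59 ± 0.39, adjusted p = 0.0211). It lost the call without YFP-positive replicate 3 and when any YFP-negative array was omitted (adjusted p up to 0.0868). Steap3, an endosomal ferrireductase that works beside the transferrin receptor in red cell precursors, had non-overlapping groups and a difference of 0.50 ± 0.11 (adjusted p = 0.0694). Tfr2, the second transferrin receptor, differed by -0.61 ± 0.27 (adjusted p = 0.323). It averaged 3.64 on YFP-positive arrays, at the array medians, against 4.25 on YFP-negative ones, so its difference can understate the change. Slc25a37, the mitochondrial iron importer mitoferrin, differed by 0.13 ± 0.21 (adjusted p = 0.836). Of 14 measured uptake genes 1 rose and 0 fell (median 0.13).

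Hfe, the class I-like partner of the transferrin receptors that is mutated in hereditary haemochromatosis, had 6.12, 5.97 and 5.18 in YFP-positive arrays, against 3.82, 4.42 and 3.54 in YFP-negative arrays. It rose 3.56-fold (1.83 ± 0.33, adjusted p = 0.0357). It kept the call without YFP-positive replicate 3 (adjusted p = 0.0192) and lost it without each of the other 5 arrays (highest adjusted p = 0.123), and with all probes tested (adjusted p = 0.0743). YFP-negative levels of Hfe lay around the array medians, so this fold can understate the change. Hamp, the hormone hepcidin, had a mean of 2.77 ± 0.08 on YFP-positive arrays, against 3.23 ± 0.76 on YFP-negative ones (SD, n = 3 each). Bmp6, its inducer in liver, had 3.26 ± 0.25 on YFP-positive arrays, against 3.09 ± 0.04 on YFP-negative ones. The means of Hamp and Bmp6 lay below the array medians in both populations, so a difference in them could be missed. Neither Hamp nor Bmp6 passed, nor did Bmp2 (adjusted p = 0.632, 0.668 and 0.498). Of the 11 measured control genes, 1 rose and 0 fell (median 0.11).

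**Figure D3:**
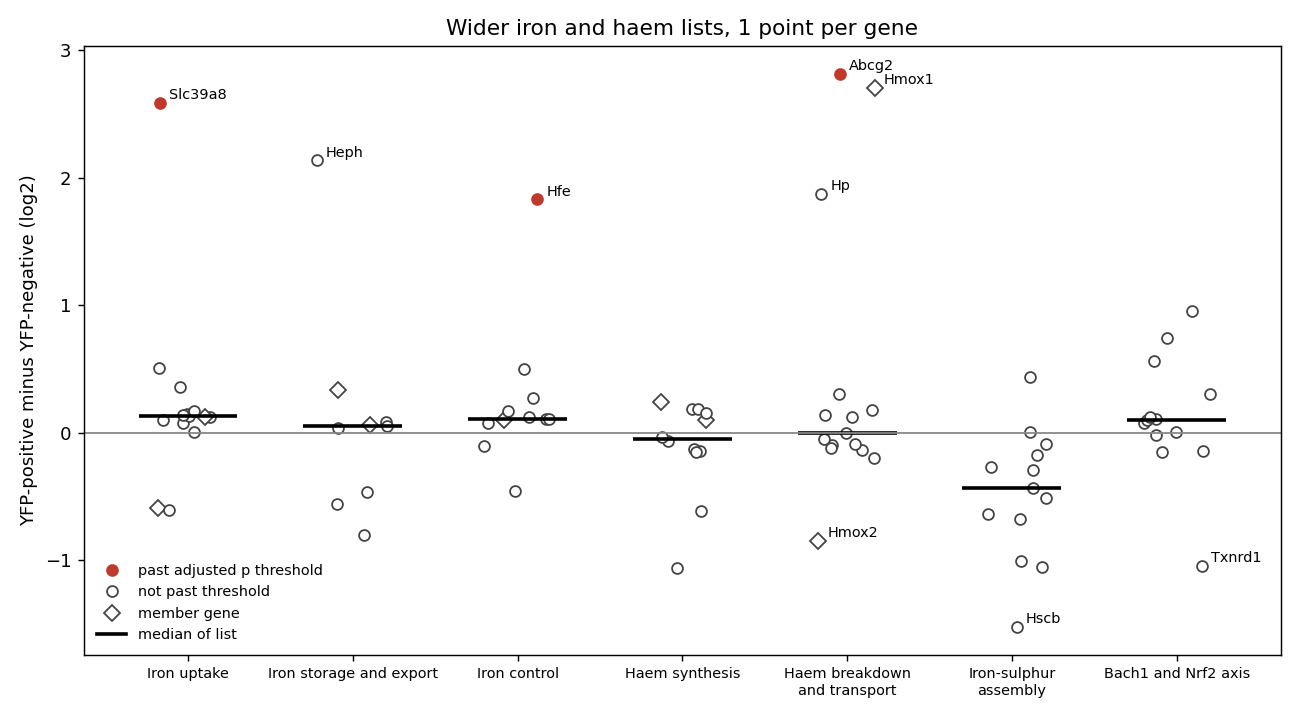
Differences (log2), YFP-positive minus YFP-negative, of the genes on 7 lists of iron and haem handling, with 1 point per gene, filled where limma's adjusted p passed 0.05, diamonds for the members and a bar at each list's median. Abcg2, Slc39a8 and Hfe are the filled points, and the iron-sulphur assembly list has its median at -0.44.

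Of 9 measured storage and export genes, 0 passed limma's test (median 0.05). At an unadjusted p under 0.05 there were 4 of the 9, against 17.2% of all genes: Heph was higher, and Pcbp1, Ncoa4 and Pcbp2 were lower. Heph, hephaestin, the ferroxidase that partners ferroportin in gut, was uneven in YFP-positive cells, at 5.14, 6.90 and 4.34, against 3.16, 3.39 and 3.43 in YFP-negative cells (2.14 ± 0.62, adjusted p = 0.14). Its groups did not overlap, but the YFP-positive arrays spread over more than the gap. Cp, ceruloplasmin, the plasma ferroxidase, had 3.08 ± 0.18 on YFP-positive arrays, against 3.04 ± 0.12 on YFP-negative ones (SD, n = 3 each, adjusted p = 0.937), below the array medians. Pcbp1, a chaperone that delivers iron to ferritin, lay lower in each YFP-positive array than in any YFP-negative one (-0.81 ± 0.21, adjusted p = 0.103). So did Ncoa4 (-0.56 ± 0.17, adjusted p = 0.147) and Pcbp2 (-0.47 ± 0.18, adjusted p = 0.249). This arrangement was thus found in 3 of the 9 genes, against 11.9% of all genes. Ncoa4 and Pcbp2 were named after their values were seen, and Pcbp2 was not refitted under the alternatives.

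Of 12 measured haem synthesis genes, 0 passed, and the same number had an unadjusted p under 0.05 (median -0.05). Tmem14c, needed to bring the haem precursor into the mitochondrial matrix, had 5.12, 5.66 and 5.68 in YFP-positive arrays, against 5.66, 7.50 and 6.50 in YFP-negative arrays (-1.06 ± 0.46, adjusted p = 0.322). Clpx, a mitochondrial unfoldase that activates the Alas enzymes, differed by -0.61 ± 0.26 (adjusted p = 0.31), and Slc25a38, the glycine carrier of haem synthesis, by -0.13 ± 0.15 (adjusted p = 0.759).

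The iron-sulphur assembly genes lay mostly on the lower side. Of 13 measured, 11 had a difference below 0 (84.6%, against 51.3% of all genes), 5 had all YFP-positive arrays below all YFP-negative ones (11.9% of all genes), and the median was -0.44. Limma called 0 of them, with 4 at an unadjusted p under 0.05, against 17.2% of all genes. Hscb, the co-chaperone that hands on new clusters, measured 5.74, 5.97 and 7.09 in YFP-positive arrays, against 7.46, 7.99 and 7.92 in YFP-negative arrays (-1.53 ± 0.38, adjusted p = 0.089). Without YFP-positive replicate 3 it passed (-1.94, adjusted p = 0.0104). Hspa9, its mitochondrial chaperone partner, differed by -1.05 ± 0.29 (adjusted p = 0.119). In YFP-positive replicates 1, 2 and 3 the median deviation of the list from the YFP-negative means was -0.52, -0.72 and -0.31, and that of the leukocyte markers -1.99, -2.30 and 0.21. The part of the leukocyte markers in this result was not tested.

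Of 13 measured genes of the Bach1 and Nrf2 axis, which governs Hmox1 and other oxidative stress genes, 0 passed, with 2 at an unadjusted p under 0.05 (median 0.10). Txnrd1, a thioredoxin reductase and known Nrf2 target, had 5.83, 6.37 and 6.55 in YFP-positive arrays, against 7.27, 7.14 and 7.46 in YFP-negative arrays, without overlap (-1.04 ± 0.21, adjusted p = 0.0512). It passed without YFP-positive replicate 3, among genes above the median level and with median centring (adjusted p = 0.0419, 0.0402 and 0.0496).

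Markers of cells that are known for high Hmox1, Slc40a1 or haem synthesis were set beside these values. The macrophage list averaged 3.74 to 3.86 on YFP-positive arrays, against 3.62 to 3.78 on YFP-negative ones. Of its 15 genes 1 rose, Mertk, an engulfment receptor named after its value was seen (1.74 ± 0.34, adjusted p = 0.046), and 2 had an unadjusted p under 0.05, Mertk and Axl (0.51 ± 0.15, adjusted p = 0.152). Mertk averaged 3.16 on YFP-negative arrays, below the array medians, so its difference can understate the change. Its call was lost in 8 of 14 alternatives (adjusted p up to 0.192). These were omitting YFP-positive replicate 1 or 2 or YFP-negative replicate 2 or 3, all probes tested, quantile normalization, the unmoderated model and the replicate block. The defining macrophage genes Adgre1 (3.58 ± 0.26 on YFP-positive arrays, against 3.60 ± 0.08 on YFP-negative ones) and Spic (3.24 ± 0.33 on YFP-positive arrays, against 3.74 ± 0.48 on YFP-negative ones) stood on average below the array medians in YFP-positive cells. Csf1r had 4.54 ± 0.32 on YFP-positive arrays, against 4.76 ± 0.67 on YFP-negative ones (SD, n = 3 each, adjusted p = 0.841). Some genes of the list were well above the medians, such as Cd68, a lysosomal protein, with 5.99, 4.62 and 7.37 on YFP-positive arrays, against 5.12, 6.07 and 7.27 on YFP-negative ones (adjusted p = 0.959). Axl and Cd68 were named after their values were seen.

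The erythroid list, 12 measured of 17 genes, averaged 4.08 to 4.49 on YFP-positive arrays, against 3.80 to 4.09 on YFP-negative ones, and 0 of the 12 passed limma's test, with 1 at an unadjusted p under 0.05. That gene was Epor, the erythropoietin receptor, at 6.50, 5.55 and 6.41 in YFP-positive arrays, against 4.91, 4.55 and 4.91 in YFP-negative arrays (1.37 ± 0.28, adjusted p = 0.0517). Epor passed on omitting YFP-positive replicate 2 (adjusted p = 0.0157), with a replicate block (adjusted p = 0.0425) and among genes above the median level (adjusted p = 0.0338). Of the 12, 10 had a difference above 0 (median 0.21), and 2 had non-overlapping groups with YFP-positive higher, against 10.8% of all genes. Below 0 were 16.7%, against 51.3% of all genes. Slc4a1 lay well above the array medians, with 5.19, 5.33 and 6.74 in YFP-positive arrays, against 4.81, 4.50 and 5.22 in YFP-negative arrays (adjusted p = 0.383). It was named after its value was seen and not refitted under the alternatives. The red cell factors Klf1 and Gata1 were near the array medians in both populations. Klf1 had 3.87 ± 0.20 on YFP-positive arrays, against 3.83 ± 0.21 on YFP-negative ones, and Gata1 had 3.35 ± 0.17 on YFP-positive arrays, against 3.56 ± 0.13 on YFP-negative ones (SD, n = 3 each).

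The endothelial list averaged 9.42, 9.53 and 8.91 in YFP-positive arrays, against 5.19, 4.97 and 4.48 in YFP-negative arrays. Hmox1, Abcg2, Slc39a8 and Hfe were higher in the same arrays, and the part of endothelial RNA in their values was not tested. In the leukocyte list 2 of 13 genes fell, Vav1 (5.90-fold lower, adjusted p = 0.00219) and Fermt3 (3.09-fold lower, adjusted p = 0.0205). The call of Fermt3 was lost on omitting YFP-positive replicate 1 or 2 or YFP-negative replicate 1 or 3 (adjusted p up to 0.085). It was also lost in the unmoderated model and with a replicate block (adjusted p up to 0.13). Without YFP-positive replicate 3, 9 of the 13 fell. Kit, which the gate selects for, was lower (-0.89 ± 0.18, adjusted p = 0.0496). Its call was lost in 12 of 14 alternatives, among them the omission of any of the 6 arrays (adjusted p up to 0.169). Of 7 measured genes that define or subdivide the LSK fraction, 5 fell, namely Kit, Flt3 (-4.17, adjusted p = 0.00507), Cd48 (-3.76, adjusted p = 0.0209), Cd27 (-3.21, adjusted p = 0.0274) and Cd34 (-2.29, adjusted p = 0.00279). The count was 2 on omitting any YFP-negative array, 3 on omitting YFP-positive replicate 1 or 2, with a replicate block or with all probes tested, and 1 in the unmoderated model. Of 14 neutrophil and 10 stromal genes 0 passed limma's test, with 2 and 4 at an unadjusted p under 0.05, against 17.2% of all genes. The 2 neutrophil genes were lower in YFP-positive cells, though 11 of the 14 had a difference above 0. Of the 4 stromal genes, 3 were higher and 1 was lower. Of 7 megakaryocyte genes 1 fell, Nrgn (2.19-fold lower, adjusted p = 0.0354, with a YFP-positive mean of 3.47 below the array medians, so the fold can understate the change). Its call was lost in 9 of 14 alternatives, among them the omission of any of the 6 arrays (adjusted p up to 0.152). Vav1, Fermt3, Nrgn, Flt3, Cd48, Cd27 and Cd34 were named after their values were seen.

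**Figure D4:**
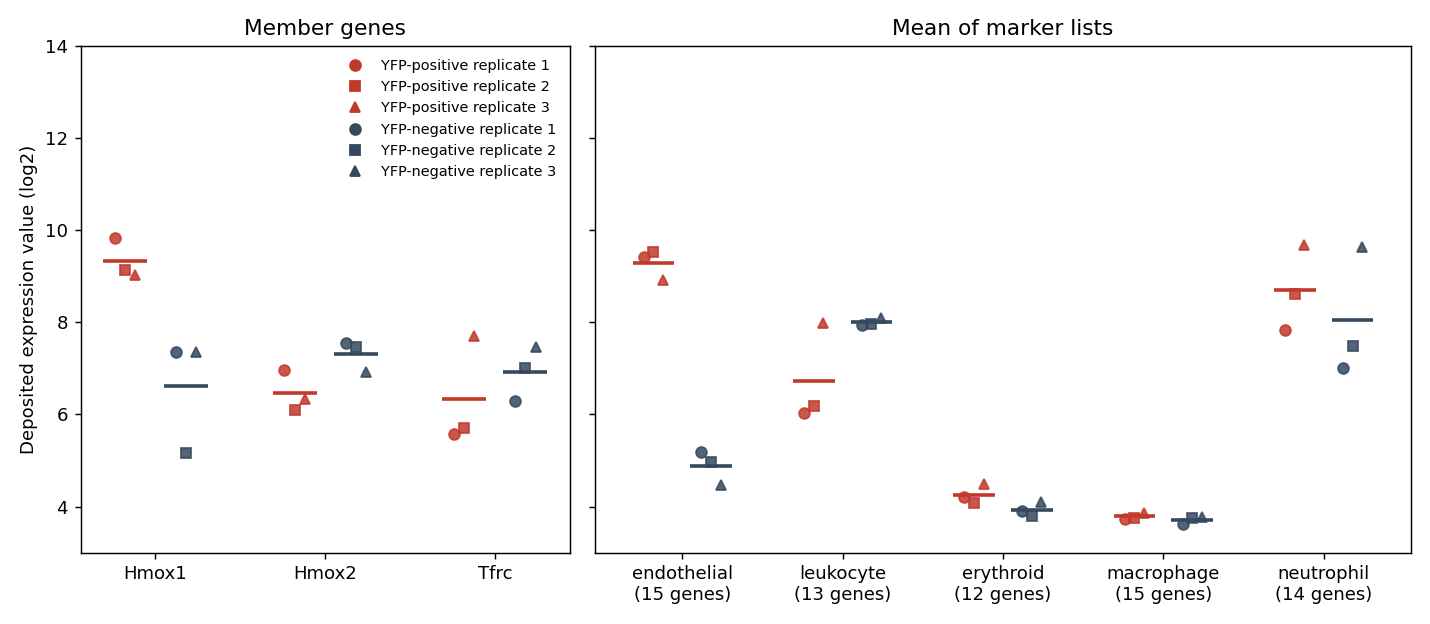
Left, log2 values of Hmox1, Hmox2 and Tfrc on each array; right, the mean log2 level of 5 marker lists on the same arrays, YFP-positive (red) left of YFP-negative (dark), with bars for group means. YFP-positive replicate 3 (triangle) has the highest Tfrc value of the 6 arrays (7.69) and is near the YFP-negative arrays in the leukocyte list (7.98). The macrophage list stays between 3.62 and 3.86 on all arrays.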

How the data were processed

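Gene expression was measured on 6 one-colour arrays. Per the labels' protocols, all RNA was isolated at one time, and amplification (Ovation Pico V2) started from 500 pg. The authors deposited log2 expression values for 41345 probes (1.53 to 13.7); the base of the logarithm was read from the values. The submitters' processing notes name Partek; the normalization and build are not stated there. The number of arrays limits the precision, and no detection calls were used.

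Of 25335 annotated probes, 23521 had 1 gene symbol and 1814 several; 16010 were unnamed here. The probe with the highest mean over the 6 arrays stood for each gene. Symbols were compared with RefSeq (GRCm38.p6), which changed 0. The test was that of limma 3.58.1 under R 4.3.3 (lmFit, eBayes, two-sided), checked on simulated data. Named genes were all members, all list genes past the threshold, the next 2 by p in each list, fixed partners of the members and defining markers. Members and lists were chosen with earlier results of these data known. Ftl1, the light chain of ferritin and a fixed partner, had a probe with several symbols and was not analysed here. Alternatives were other probe summaries, filters, scalings, variance models, the replicate number as a block, and leaving out each array.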

Additional observations from a re-analysis of the deposited data

How the results depend on the processing

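For 57 named genes under up to 14 alternatives each, 685 of 787 fits kept direction and side of the threshold, 14 gained a call and 61 lost one; 27 changed sign, 0 of them past the threshold. Every change of sign came from leaving out 1 array and concerned differences not past the threshold, with ranges of -0.0622 to 0.14 for Fth1, -0.17 to 0.37 for Fech, -0.13 to 0.23 for Ireb2, -0.0608 to 0.41 for Blvra, -0.31 to 0.10 for Flvcr1, -0.0569 to 0.26 for Slc25a37, -0.13 to 0.41 for Bach1, -0.063 to 0.11 for Cp, -0.0702 to 0.16 for Klf1, -0.17 to 0.0824 for Adgre1, -0.60 to 0.00203 for Csf1r, -0.34 to 1.60 for Slc7a11, -0.85 to 0.53 for Cd68 and -0.082 to 0.0255 for Lyve1. Slc40a1 and other genes at or below the median level gave no value with the filter on level. Leaving out 1 array gave 0 to 1 members past the threshold, 1 to 2 higher and 0 to 3 lower genes on the wider lists, 11 to 13 endothelial genes higher and 1 to 9 leukocyte genes lower. The 3 lower genes without YFP-positive replicate 3 were Hscb, Txnrd1 and Ncoa4 (-0.72, adjusted p = 0.0401, named after its value was seen).

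With the filter on level and with trend and robust eBayes, 1 member passed, Hmox1 (2.71 in both, adjusted p = 0.0407 and 0.0498), and without YFP-negative replicate 2 it did so at 1.97, where leaving out 1 array gave 1.97 to 3.07 for it. The filter and median centring each gave 1 lower gene on the wider lists. The unmoderated model gave 0 higher genes there, 8 endothelial genes higher and 1 leukocyte gene lower. Genes past the threshold over the whole table numbered 1074, against 624 with all probes tested, 180 unmoderated and 430 to 1185 without 1 array. Same-numbered arrays of the populations correlated in their deviations from group means at 0.0985, 0.0806 and 0.167, against -0.111 to 0.0301 for unlike numbers. Each array correlated best with its own number, and whether the numbers pair the samples is not known. The main model did not use them, and the replicate block was run as an alternative. With the replicate block 580 genes passed, 1 leukocyte gene fell, Hmox1 did not pass (adjusted p = 0.0792), and Hp was called (1.87, adjusted p = 0.0131).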

Other observations

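On the wider lists, Hp and Slc7a11 were highest in replicate 3 of both populations; they are named here after their values were seen. Hp, haptoglobin, which binds free haemoglobin and is also stored in neutrophil granules, had values of 4.95, 6.19 and 9.43 on YFP-positive arrays 1, 2 and 3, against 3.27, 4.21 and 7.48 on the YFP-negative ones. Within each number the YFP-positive array was the higher one, but the groups overlapped (difference 1.87, 95% interval -1.77 to 5.52, adjusted p = 0.631). Slc7a11, the cystine importer of glutathione synthesis, had 2.91, 2.91 and 6.78 in YFP-positive arrays, against 2.81, 2.82 and 4.10 in YFP-negative arrays (adjusted p = 0.759). The mean of 14 neutrophil markers was 7.84, 8.61 and 9.68 in YFP-positive arrays, against 7.01, 7.50 and 9.64 in YFP-negative arrays. Its part in the values of both genes was not tested. In Hmox1 the order differed between the populations. Its YFP-positive values went down from 9.83 to 9.14 and 9.03 over arrays 1, 2 and 3. Its YFP-negative values were 7.36, 5.16 and 7.36, with array 3 level with array 1. The part of the neutrophil markers in the values of Hmox1 was not tested either.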
